A study of Mus musculus with 11 samples.

Results

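Krt7, Krt8, Krt18 and Krt19 are the simple epithelial keratins, the intermediate filament genes of one-layered epithelium. They were taken as the probe sets whose single gene symbol is one of these 4 names, with 1 probe set per gene, chosen for the highest average across whole-stomach samples. All 4 were found, among 22180 genes measured on 9 whole-stomach arrays and 2 arrays of separated stomach cells. Krt18 had a second probe set, which is described apart.

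The samples were stomachs of adult C57Bl/6 mice, a laboratory strain, and no transgene is named for any group. The tamoxifen group (2 arrays) received tamoxifen, a drug that binds oestrogen receptors, at 5 mg per 20 g mouse for 3 days. The group given rapamycin plus tamoxifen (2 arrays) received that dose and also rapamycin, a blocker of mTORC1, a kinase complex that drives cell growth, at 0.6 mg per 20 g mouse for 10 days. The rapamycin group (3 arrays) received rapamycin alone, and the vehicle group (2 arrays) received sunflower oil. All were daily injections into the peritoneum, and a vehicle for rapamycin is not named in the labels. The remaining 2 arrays held isolated parietal cells, the acid-secreting cells of the gastric gland, and all stomach cells other than parietal cells. The labels call the whole-stomach arrays biological replicates, without saying how many mice each one holds, so p-values measure the spread between these arrays.

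Keratin filaments are built from pairs, each of a type II and a type I keratin. Krt7 and Krt8 are type II, and Krt18 and Krt19 are type I. Krt8 and Krt18 are the first pair made in simple epithelium and are found throughout the glandular stomach. Krt7 and Krt19 are known best from ducts and from regenerating or metaplastic gland epithelium, while stratified squamous epithelium, such as the forestomach of the mouse, uses other pairs. Mesothelium, the outer lining of the stomach, also makes the simple keratins.

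Krt7, Krt8 and Krt18 lie on chromosome 15 and Krt19 on chromosome 11. The 250 bases before the transcription start are shown for the 3 members with an entry in the RefSeq promoter table (GRCm38.p6), so that the member with the largest change with tamoxifen can be read beside the Krt8 and Krt18 pair. The windows are chr15:101412153-101412402 on the plus strand for Krt7, chr15:102004343-102004592 on the minus strand for Krt8 and chr15:102027966-102028215 on the plus strand for Krt18. Each is written 5′ to 3′ along its gene, and capitals mark matches to the GC box.
Krt7: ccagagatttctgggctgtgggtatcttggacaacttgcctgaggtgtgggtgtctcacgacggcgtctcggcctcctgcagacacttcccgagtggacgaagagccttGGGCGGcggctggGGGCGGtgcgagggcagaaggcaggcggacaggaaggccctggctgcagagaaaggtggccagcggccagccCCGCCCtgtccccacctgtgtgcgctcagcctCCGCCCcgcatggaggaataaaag
Krt8: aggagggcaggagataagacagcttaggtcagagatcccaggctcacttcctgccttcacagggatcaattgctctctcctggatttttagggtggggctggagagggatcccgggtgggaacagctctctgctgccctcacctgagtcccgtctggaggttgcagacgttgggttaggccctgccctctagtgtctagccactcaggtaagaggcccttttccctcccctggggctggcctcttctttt
Krt18: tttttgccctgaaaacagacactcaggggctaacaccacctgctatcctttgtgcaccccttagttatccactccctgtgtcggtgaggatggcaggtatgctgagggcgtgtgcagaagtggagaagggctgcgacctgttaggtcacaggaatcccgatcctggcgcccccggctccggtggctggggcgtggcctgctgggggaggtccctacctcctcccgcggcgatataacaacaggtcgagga
The motifs searched on both strands were the GC box (GGGCGG), the TATA box (TATAAA) and the AP-1 site (TGANTCA). The Krt7 window held 4 GC boxes, between 141 and 19 bases before the start, and no match to the other motifs. The Krt8 and Krt18 windows held no match to any of them. Among 32851 promoter windows of the same length, 32.7% held a GC box, 12.4% a TATA box and 6.75% an AP-1 site. The GC content was 66% for Krt7, 58% for Krt8 and 60.4% for Krt18, against a median of 52.4% over all windows.

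The arrays differed within groups in squamous signal from the forestomach, which bears on any keratin result. The mean log2 level of 12 squamous genes that are not keratins was 8.999 and 5.11 with tamoxifen, 8.34 and 8.63 with the combination, 8.97, 7.88 and 5.43 with rapamycin, and 5.26 and 4.99 with vehicle. High and low arrays occurred within the tamoxifen group and within the rapamycin group. The glandular identity of the tissue was clear from the pit mucous list (Muc5ac, Tff1, Gkn1, Gkn2 and Psca), whose mean lay between 13.29 and 13.60 on all whole-stomach arrays.

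Krt7 had the largest fitted change with tamoxifen of the 4 and was the member that limma called. No test of its difference from the other members passed, in permutations with few arrangements, as given further on. Its log2 levels were 7.68 and 8.35 with tamoxifen, 7.58 and 7.08 with the combination, 6.82, 5.98 and 6.06 with rapamycin, and 5.93 and 6.53 with vehicle. Every array with tamoxifen was above every array without it, and the share of all genes with this full separation was not counted. The group means were 8.01 ± 0.47 (SD, n = 2) with tamoxifen, 7.33 ± 0.35 (SD, n = 2) with the combination, 6.29 ± 0.46 (SD, n = 3) with rapamycin and 6.23 ± 0.42 (SD, n = 2) with vehicle. In that order the rapamycin and vehicle groups overlapped, and the tamoxifen and combined groups did not overlap, although limma did not call their difference.

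**Figure D1:**
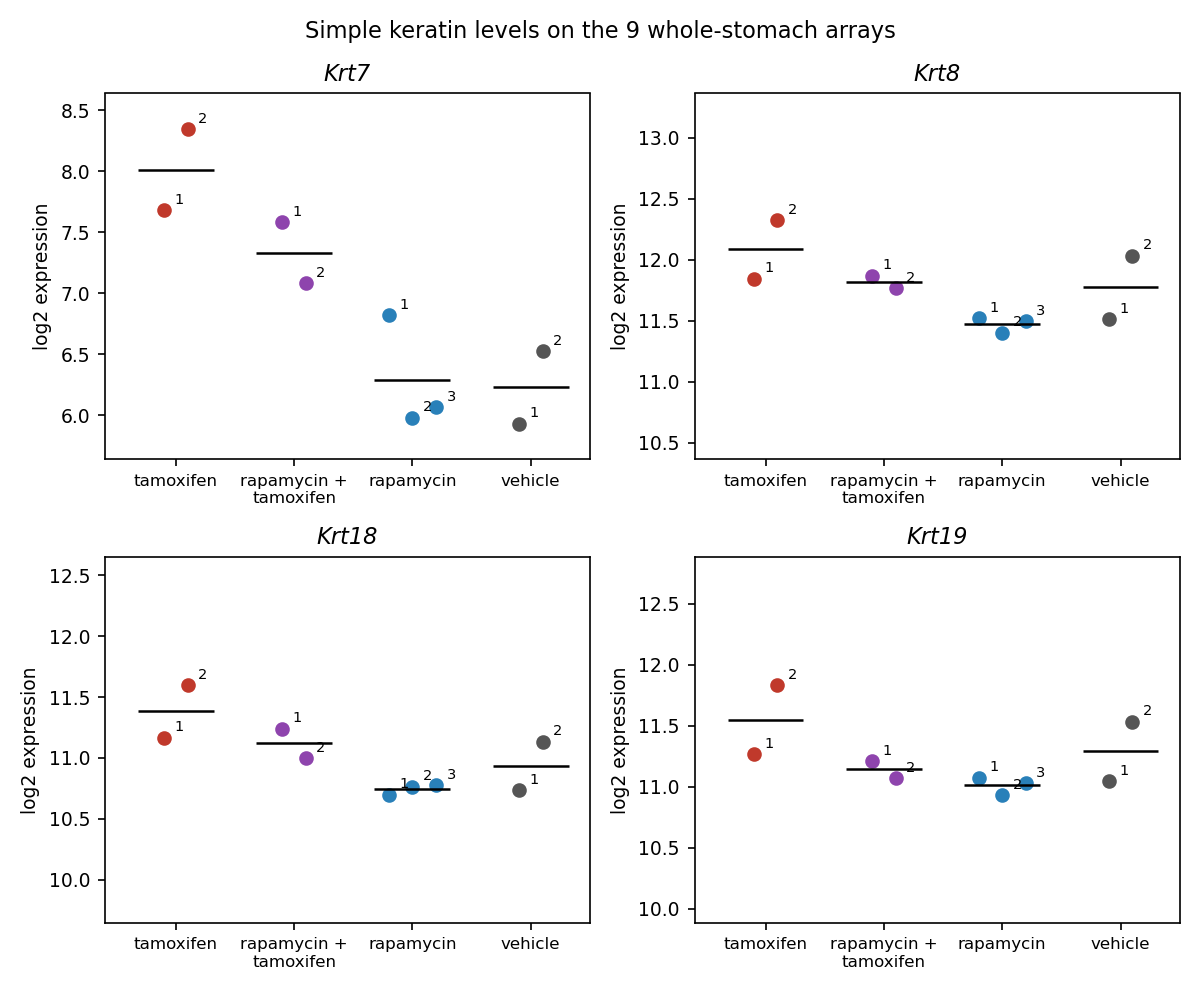
Log2 expression of Krt7, Krt8, Krt18 and Krt19 on each whole-stomach array, by group, with each array's replicate number beside its point and a bar at the group mean. The vertical axes span the same number of log2 units but start at different levels. The Krt7 arrays with tamoxifen sit between 7.08 and 8.35, all above those without it, which sit between 5.93 and 6.82.

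The tamoxifen and vehicle groups show the effect of tamoxifen without rapamycin. Krt7 rose by 1.78 ± 0.35 log2 units (limma standard error), a 3.44-fold change (limma adjusted p = 0.0445). That made 1 of the 4 members called as higher, against 0.933% of all genes called as higher and 1.72% called in either direction. Krt7 and Krt18 had an unadjusted p under 0.05, as did 10.9% of all genes. The call lay close to the threshold of 0.05 and was lost with any single array left out other than rapamycin 1, up to an adjusted p of 0.198, while the change stayed between 1.45 and 2.12. It was lost too with the 4 arrays fitted alone (adjusted p = 0.289), with the squamous mean as a covariate (adjusted p = 0.0856), with arrays centred on their medians (adjusted p = 0.0523) and with the replicate number as a block (adjusted p = 0.0958). Calls over all genes fell too, from 381 in the main fit to 0, 164, 304 and 170, in that order. With the 4 arrays alone no gene was called, so that fit says nothing particular to Krt7.

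The rapamycin plus tamoxifen arrays against the rapamycin arrays ask the same question under rapamycin. Krt7 stood 1.04 ± 0.32 log2 units higher, with a 95% interval of 0.32 to 1.77 on that scale. This 2.06-fold difference did not pass over all genes (limma adjusted p = 0.161). None of the 4 members was called by limma, against 1.13% of all genes called as higher and 2.45% in either direction. Krt7 alone had an unadjusted p under 0.05, as did 13.9% of all genes. The 2 comparisons share no arrays. The difference between them was -0.74 ± 0.47 on the log2 scale, with an interval of -1.81 to 0.33, and limma did not call it (adjusted p = 1). In this test limma called 0 of 4 members and 0% of all genes, and 0 members and 2.83% of all genes had an unadjusted p under 0.05. The combined arrays stood -0.68 ± 0.35 from the tamoxifen arrays (limma adjusted p = 0.814), with no overlap between the groups.

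Averaged over both backgrounds, tamoxifen raised Krt7 by 1.41 ± 0.24 log2 units, or 2.66-fold (limma adjusted p = 0.00892). This was again 1 of 4 members, against 3.24% of all genes called as higher and 5.85% in either direction, and the change lay at the 99.6th percentile of all genes. Krt7, Krt8 and Krt18 had an unadjusted p under 0.05, as did 17.6% of all genes. The call was kept with each array left out except rapamycin plus tamoxifen 1, where the adjusted p was 0.0525, and the change ran from 1.25 to 1.58. With the squamous mean as a covariate the change was 1.45 (adjusted p = 0.0223). Among arrays with tamoxifen, Krt7 was highest in tamoxifen 2, 8.35, at a squamous mean of 5.11. Among arrays without it, Krt7 was highest in rapamycin 1, 6.82, at their highest squamous mean, 8.97. The squamous mean was low on both vehicle arrays (5.26 and 4.99) and high on both combined arrays (8.34 and 8.63). The covariate therefore cannot be fully told apart from the groups. The part of squamous tissue in the Krt7 level was not tested.

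**Figure D2:**
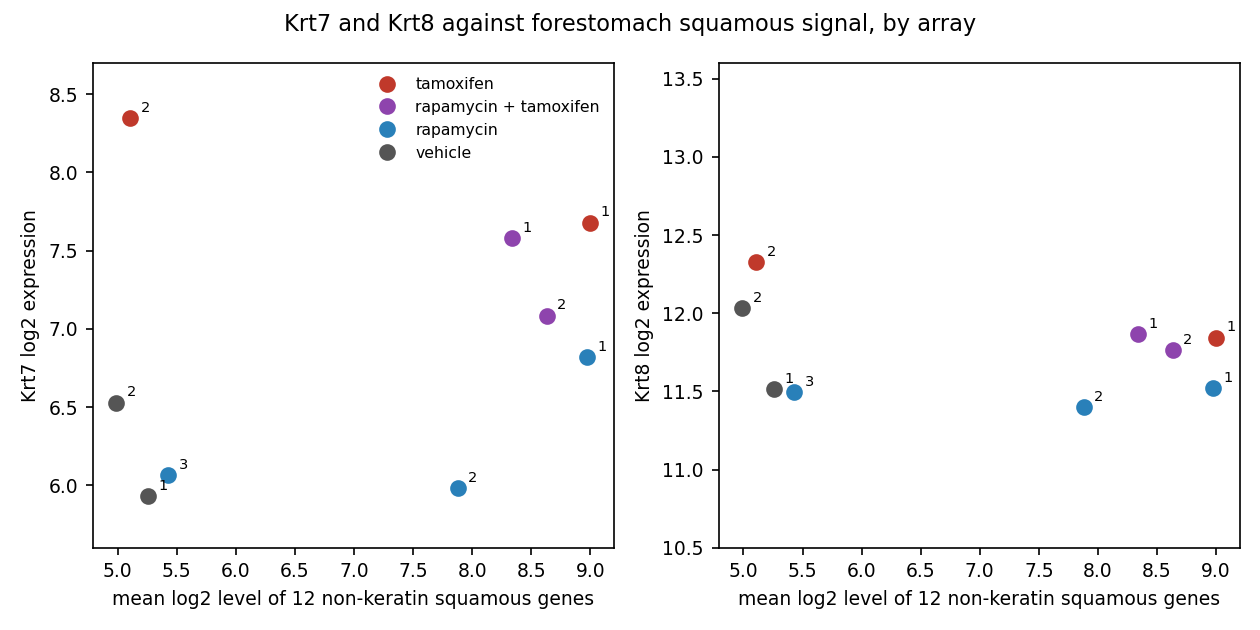
Log2 expression of Krt7 (left) and Krt8 (right) on each whole-stomach array against the mean log2 level of 12 forestomach squamous genes that are not keratins, coloured by group and numbered by replicate. Tamoxifen 2 and vehicle 2 have squamous means of 5.11 and 4.99 and Krt7 levels of 8.35 and 6.53. Tamoxifen 1 and rapamycin 1 have squamous means of 8.999 and 8.97 and Krt7 levels of 7.68 and 6.82, a narrower gap.

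Krt8, the type II partner of Krt18, varied less. Its log2 levels were 11.84 and 12.32 with tamoxifen, 11.87 and 11.76 with the combination, 11.52, 11.40 and 11.49 with rapamycin, and 11.51 and 12.03 with vehicle. Tamoxifen and vehicle overlapped, while both combined arrays were above the 3 rapamycin arrays. The change was 0.31 ± 0.21 for tamoxifen against vehicle, with an interval of -0.17 to 0.79 (limma adjusted p = 0.752). It was 0.35 ± 0.19 for the combination against rapamycin, with an interval of -0.09 to 0.78 (limma adjusted p = 0.508).

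Krt18, the type I partner of Krt8, had log2 levels of 11.17 and 11.60 with tamoxifen, 11.24 and 10.998 with the combination, 10.70, 10.76 and 10.78 with rapamycin, and 10.73 and 11.13 with vehicle. Both tamoxifen arrays were above both vehicle arrays, the lower of them by little, and both combined arrays were above all rapamycin arrays. The change was 0.45 ± 0.19 for tamoxifen against vehicle (limma adjusted p = 0.44) and 0.37 ± 0.18 for the combination against rapamycin (limma adjusted p = 0.408). Averaged over both backgrounds it was 0.41 ± 0.13 log2 units, with an interval of 0.11 to 0.71 on that scale. This 1.33-fold difference did not pass over all genes (limma adjusted p = 0.12). The second Krt18 probe set gave 0.38 ± 0.19, 0.21 ± 0.17 and 0.29 ± 0.13 for the same comparisons, and limma called none of these.

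Krt19, a small type I keratin without the usual tail, had log2 levels of 11.26 and 11.84 with tamoxifen, 11.21 and 11.07 with the combination, 11.07, 10.93 and 11.03 with rapamycin, and 11.05 and 11.53 with vehicle. Groups with and without tamoxifen overlapped in both backgrounds. The change was 0.26 ± 0.22 for tamoxifen against vehicle, with an interval of -0.24 to 0.76 (limma adjusted p = 0.838). It was 0.13 ± 0.20 for the combination against rapamycin, with an interval of -0.33 to 0.58 (limma adjusted p = 0.874).

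**Figure D3:**
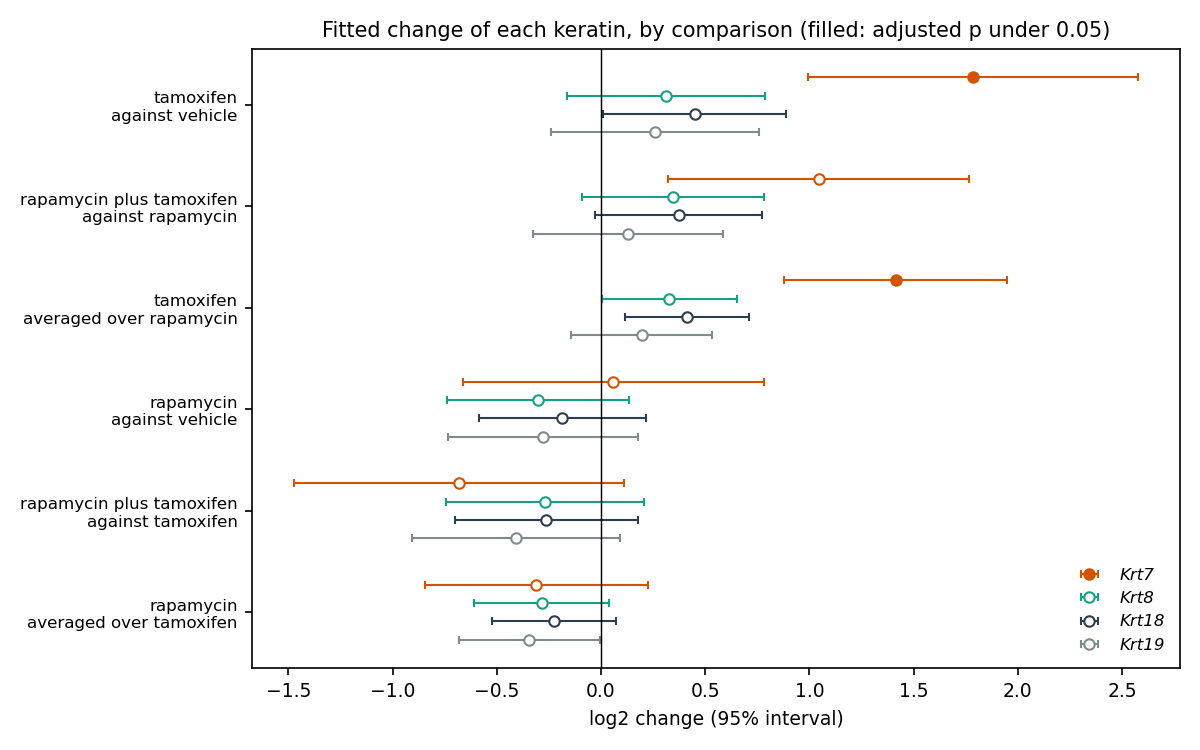
Fitted log2 change of each simple keratin in 6 comparisons, with 95% intervals from limma and filled points where the adjusted p is under 0.05. Krt7 is filled for tamoxifen against vehicle (1.78) and for tamoxifen averaged over rapamycin (1.41), and no other point is filled.

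Counted without a test, 2 of the 4 members (Krt7 and Krt18) had tamoxifen arrays wholly above the vehicle arrays, against 13.4% of all genes. For the combination against rapamycin 3 of the 4 did (Krt7, Krt8 and Krt18), against 18.7% of all genes. The median change of the 4 was 0.38 for tamoxifen against vehicle and 0.36 for the combination against rapamycin, beside medians of -0.02 and -0.01 over all genes. A list of 8 other genes of columnar epithelium stood beside them. Its mean log2 level was 9.19 and 9.29 with tamoxifen, 9.22 and 9.16 with the combination, 8.92, 8.85 and 8.85 with rapamycin, and 8.85 and 9.12 with vehicle. Within that list, Cldn7, a tight junction claudin, rose by 0.53 ± 0.13 with tamoxifen averaged over rapamycin (limma adjusted p = 0.0458). It was 1 of 8 called, against 3.24% of all genes called as higher.

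Other cell types moved with tamoxifen too, and in whole tissue fewer cells of a type and less RNA per cell cannot be told apart. The mean of 10 parietal cell genes lay between 9.18 and 9.80 on the 4 arrays with tamoxifen and between 10.47 and 10.81 on the 5 arrays without it, and all 10 had a negative change with tamoxifen averaged over rapamycin. Limma called 8 of these 10 as lower, where 5.85% of all genes were called in either direction. The mean of 5 chief cell genes, which mark the pepsinogen-secreting cells, lay between 9.60 and 10.25 with tamoxifen and between 11.11 and 11.47 without it, and limma called 4 of the 5 as lower in the same comparison, with a median change of -1.32 over the list, beside -0.88 for the parietal list. The mean of 5 cycling genes (Mki67, Top2a, Cdk1, Rrm2 and Birc5) lay between 7.81 and 8.57 with tamoxifen and between 6.56 and 7.36 without it, and limma called all 5 as higher in that comparison. Of 3 endothelial genes limma called 1, Kdr, a receptor of vascular growth factor, as lower (-0.68 ± 0.16, adjusted p = 0.0395). All 3 had an unadjusted p under 0.05, as did 17.6% of all genes. Mesothelial genes, 6 in all, had a mean of 5.65 and 5.27 with tamoxifen against 5.74 and 5.09 with vehicle. Limma called 0 of 6 in that comparison, with 0 at an unadjusted p under 0.05, against 10.9% of all genes. The mesothelial mean was 6.18 and 5.97 in the combined arrays, against 5.27, 5.53 and 5.70 with rapamycin, with no overlap. Limma called 0 of 6 there, with 5 of 6 positive and a median change of 0.60. An unadjusted p under 0.05 was found for 2 of 6, against 13.9% of all genes. For the combination against vehicle limma called 0 of 6, with 4 at an unadjusted p under 0.05, against 13.7% of all genes. Of 8 genes of neck mucous cells and metaplasia, limma called 0 as higher and 1 as lower with tamoxifen averaged over rapamycin. Their changes ran from -1.17 to 1.33 with a median of 0.41, and 5 of 8 were positive. An unadjusted p under 0.05 was found for 6 of 8, against 17.6% of all genes. In that comparison limma called 1 of 4 leukocyte genes as higher and 1 of 5 smooth muscle genes as lower, where 5.85% of all genes were called in either direction. The part of these shifts in the keratin values was not tested.

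Whether the members changed by unequal amounts was tested in pairs. On each array the log2 level of a member minus that of another was taken, and tamoxifen labels were permuted within each background, which gives 60 arrangements and a smallest p of 0.0167. Averaged over rapamycin, the change of Krt7 exceeded that of Krt8 by 1.09, that of Krt18 by 1.003 and that of Krt19 by 1.22 log2 units. The exact permutation p was 0.0333, 0.05 and 0.0333, two-sided, or 0.05, 0.06 and 0.05 after adjustment over the 6 pairs, so none was under the threshold of 0.05. A pair that reached the smallest p alone could not pass after this adjustment, so these tests cannot show that the changes were equal. The change of Krt8 differed from that of Krt18 by -0.08 (exact permutation adjusted p = 0.2). Krt8 and Krt18 exceeded Krt19 by 0.13 and 0.22, each with an exact permutation adjusted p of 0.05.

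Limma called no simple keratin for rapamycin, in comparisons where it called few genes at all. Against vehicle, the rapamycin arrays differed by 0.06 ± 0.32 for Krt7, -0.30 ± 0.19 for Krt8, -0.19 ± 0.18 for Krt18 and -0.28 ± 0.20 for Krt19. None of the 4 was called and none had an unadjusted p under 0.05, where 0.0496% of all genes were called and 8.91% had such a p. All 4 overlapped between these groups, while 12.7% of all genes were wholly higher with rapamycin and 14.3% wholly lower. Averaged over tamoxifen, the 4 changes were all negative, from -0.34 ± 0.15 for Krt19 to -0.22 ± 0.13 for Krt18. The interval for Krt19 was -0.68 to -0.007. Limma called none of the 4, with 0.0496% of all genes called, and 1, Krt19, had an unadjusted p under 0.05, as did 13.1% of all genes. Against tamoxifen alone, the combined arrays of Krt7 and Krt19 lay wholly lower, 2 of 4 members against 20.3% of all genes, and 0 members and 0% of all genes were called by limma. At an unadjusted p under 0.05 there were 0 members and 5.67% of all genes.

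For rapamycin plus tamoxifen against vehicle, Krt7 stood 1.10 ± 0.35 log2 units higher, with both combined arrays above both vehicle arrays (limma adjusted p = 0.213). Of the 4 members 1 did not overlap in this direction, against 19.3% of all genes. Krt8 stood at 0.04, Krt18 at 0.19 and Krt19 at -0.15, and these 3 overlapped. Limma called 0 of 4 members, against 1.15% of all genes, and Krt7 alone had an unadjusted p under 0.05, as did 13.7% of all genes.

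Arrays of the same group differed in all 4 keratins at once. Vehicle 2 stood above vehicle 1 by 0.60 for Krt7, 0.52 for Krt8, 0.40 for Krt18 and 0.48 for Krt19. Tamoxifen 2 stood above tamoxifen 1 by 0.67, 0.48, 0.43 and 0.57 for the same genes. For Krt8 and Krt19 these gaps exceeded the fitted change with tamoxifen averaged over rapamycin, 0.33 and 0.19, and for Krt18 they were close to it, 0.41. For Krt7 that change was 1.41. The vehicle and tamoxifen gaps ran the same way by number. Between arrays of the same number, tamoxifen minus vehicle was 1.75 and 1.82 for Krt7 and 0.33 and 0.29 for Krt8. It was 0.43 and 0.46 for Krt18 and 0.22 and 0.30 for Krt19. The numbers were not taken as pairs, for the reason given at the end. The combined arrays were closer, 0.10 apart for Krt8, 0.24 for Krt18 and 0.14 for Krt19, and 0.50 apart for Krt7. The 3 rapamycin arrays lay within 0.12 for Krt8, 0.08 for Krt18 and 0.14 for Krt19, but spread over 0.84 for Krt7.

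Set among all 53 keratin genes measured, Krt7 was the only one that limma called in any of the 8 comparisons. For tamoxifen averaged over rapamycin, 7 keratins had larger fitted changes than Krt7, all of them from the squamous list. The 10 measured squamous keratins had changes from 1.07 to 2.95 with standard errors from 0.57 to 1.90, and limma called 0 of them in this comparison, with 0 at an unadjusted p under 0.05. Their mean log2 level was 9.55 and 4.39 with tamoxifen, 8.55 and 8.94 with the combination, 9.41, 8.04 and 5.05 with rapamycin, and 4.80 and 4.40 with vehicle. Those of smallest p were Krt15, a keratin of basal squamous cells, at 1.45 ± 0.75 and Krt16, a keratin of stressed squamous epithelium, at 1.07 ± 0.57. Krt7 had a standard error of 0.24 at a like change. Its spread within groups (residual SD 0.44) was still larger than that of 95.1% of all genes. For Krt8, Krt18 and Krt19 the residual SD was 0.23, 0.20 and 0.24.

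**Figure D4:**
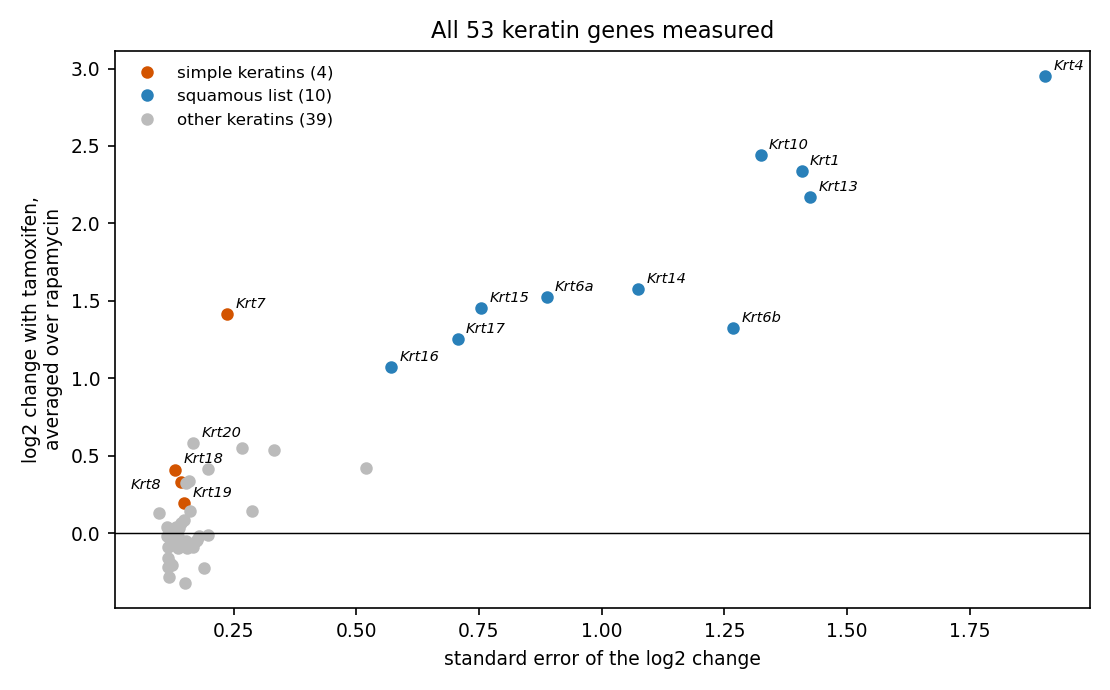
Log2 change with tamoxifen, averaged over rapamycin, against its standard error for all 53 keratin genes measured, with the 4 simple keratins and 10 squamous keratins coloured. Krt7 lies at 1.41 with a standard error of 0.24, while the squamous keratins have changes from 1.07 to 2.95 with standard errors from 0.57 to 1.90.

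The 2 other keratins of simple epithelium on the list were Krt20, a keratin of mature gastric surface and intestinal cells, and Krt23. Krt20 had log2 levels of 10.51 and 11.18 with tamoxifen, 11.24 and 10.92 with the combination, 11.08, 10.64 and 10.79 with rapamycin, and 9.78 and 10.07 with vehicle. Every treated array was above both vehicle arrays, and the share of all genes with this pattern was not counted. The Krt20 difference from vehicle was 0.91 ± 0.25 with tamoxifen (limma adjusted p = 0.134), 1.15 ± 0.25 with the combination (limma adjusted p = 0.0759) and 0.91 ± 0.23 with rapamycin (limma adjusted p = 0.333), and none passed. These 3 comparisons share the vehicle arrays. Krt23 stood at 0.42 ± 0.22 for tamoxifen against vehicle (limma adjusted p = 0.613).

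The genes whose proteins meet keratin filaments were taken next. Of 14 measured genes of desmosomes and hemidesmosomes, the junctions that anchor keratin, limma called 0 for tamoxifen averaged over rapamycin, with 3 at an unadjusted p under 0.05, a share near the 17.6% of all genes. Their median change was 0.25, beside -0.02 over all genes. Itgb4, the hemidesmosome integrin, had the smallest p at 0.36 ± 0.10 (limma adjusted p = 0.0758), and the plakophilin Pkp3 stood at 0.30 ± 0.12. Of 5 proteins that bind Krt8 or Krt18, limma called 0, with 0 at an unadjusted p under 0.05, and the changes ran from -0.07 to 0.47. Of 6 other intermediate filament genes, Lmnb1, a lamin of the nuclear envelope, rose by 0.88 ± 0.10 with tamoxifen averaged over rapamycin (limma adjusted p = 0.00182). It was the 1 gene of these 6 called in that comparison, against 3.24% of all genes called as higher and 5.85% in either direction.

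By Pearson correlation of log2 values over the 9 whole-stomach arrays, the genes most like Krt7 were Cldn2, a tight junction claudin (0.993), Psmd7, a proteasome subunit (0.992), Cct6a, a chaperonin subunit (0.984), Shtn1 (0.984) and Exosc8, an RNA exosome subunit (0.980). Of these, Cldn2 was 1.53 log2 units higher with tamoxifen than with vehicle and the other 4 between 0.51 and 0.78 higher. Krt8 was most like Snx5 (0.994), Xrn2 (0.989), Exoc5, Pla2g12b and Tbk1 (0.988 each). Krt18 was most like Trio (0.984), Mcm8 (0.983), Nup107 (0.982), Rbm25 and Ranbp1 (0.981 each). Krt19 was most like Ccdc50 (0.989), Rpe (0.988), Ddx54 (0.987), Hnrnpr and Tnpo3 (0.985 each). The 9 arrays share groups and array-wide shifts, and 285 genes reached 0.9 with Krt7, 738 with Krt8, 524 with Krt18 and 721 with Krt19.

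The separated cells show how the keratins divide between the parietal fraction and the other stomach cells. With 1 array each there was no test. Krt19 was 7.15 in isolated parietal cells and 9.83 in the other stomach cells on the log2 scale, a difference of -2.69, or 6.43-fold lower. Krt7 was 4.68 in isolated parietal cells and 6.53 in the other cells, 3.60-fold lower. Krt8 was 9.84 in isolated parietal cells and 11.31 in the other cells, 2.76-fold lower. Krt18 was 10.44 in isolated parietal cells and 10.88 in the other cells, 1.36-fold lower, and its second probe set read 10.64 and 11.24, 1.51-fold lower. On the whole-stomach arrays that second probe set lay between 8.34 and 8.95, below its fraction values, whereas the first lay between 10.70 and 11.60, and which part of the transcript each reads is not known here.

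Thus 3 of the 4 members were at least 1 log2 unit lower in the parietal fraction, against 6.46% of all genes, and Krt18 was not. Other lists were lower by that much too: 4 of 5 pit mucous, 6 of 8 neck mucous and metaplasia, 4 of 5 chief and 4 of 5 cycling genes. Of smooth muscle genes 0 of 5 were, and of endothelial genes 0 of 3. Outside the 4, Krt20 was 5.65 in isolated parietal cells and 8.95 in the other cells, while Krt23 was 8.28 and 9.02. The separation itself was visible in the marker lists: 9 of 10 parietal genes were at least 1 log2 unit higher in the parietal fraction, with a median difference of 3.57, and 7 of 7 endocrine genes were at least 1 lower. Pit mucous genes still had a mean of 11.05 in the parietal fraction, against 12.52 in the other cells, with a median difference of -1.49. The parietal genes Atp4a and Atp4b read 8.03 and 8.74 in the other cells. How much of the keratin level in either fraction came from carried-over cells was not tested. Of the 10 squamous keratins 5 were at least 1 lower in the parietal fraction (Krt6a, Krt6b, Krt14, Krt15 and Krt17). They read from 2.21 to 3.64 in isolated parietal cells, below that array's median of 3.67, and from 4.18 to 6.58 in the other cells. Columnar epithelial genes had a median difference of -0.73, with 3 of 8 at least 1 lower. The squamous genes that are not keratins had a mean of 4.02 in the parietal fraction and 3.95 in the other cells, with 0 of 12 differing by 1 log2 unit. Mesothelial genes had means of 3.22 and 3.13, also with 0 of 6 differing by that much. The fraction arrays had medians of 3.67 and 3.68, against 4.95 to 5.09 on the whole-stomach arrays, and were compared only with each other.

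**Figure D5:**
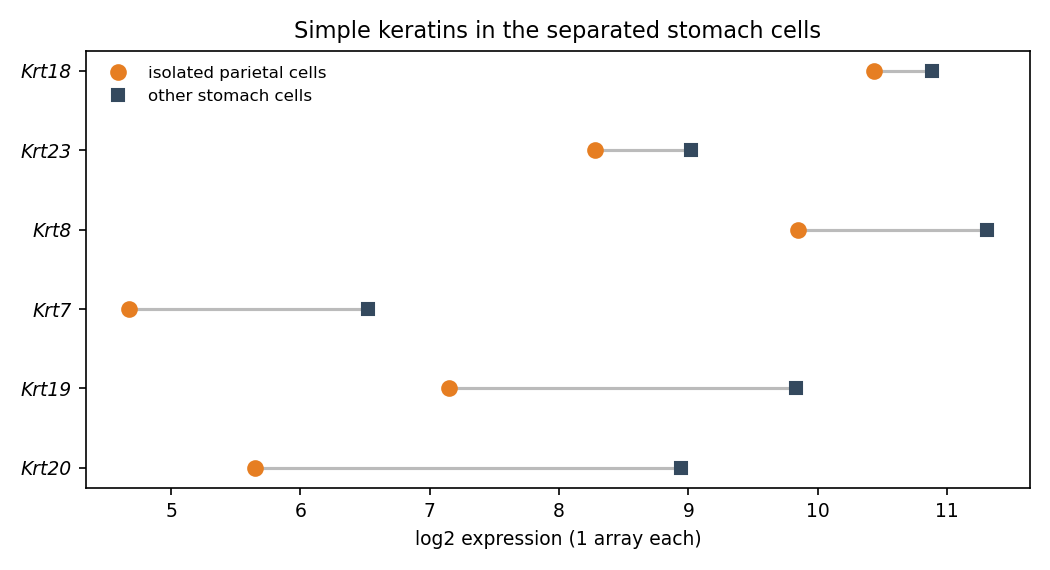
Log2 expression of the 4 simple keratins with Krt20 and Krt23 in isolated parietal cells (circles) and the other stomach cells (squares), 1 array each, to be compared within a row. The gap is narrowest for Krt18 (10.44 and 10.88) and widest for Krt20 (5.65 and 8.95).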

How the data were processed

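The authors deposited log2 expression values per probe set from Affymetrix arrays, made with RMA in Partek per the submitters' processing notes; no version, setting or genome build could be read from the labels. Per the labels' protocols, RNA was column-purified, amplified and biotin-labelled, so levels passed through an amplification that can compress or stretch differences. The table held 41345 probe sets, of which 23521 had 1 symbol, 1814 several and 16010 none. The probe set of highest whole-stomach mean stood for each of 22180 genes, and dim ones were kept. The number of arrays limits the precision.

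All genes entered a limma 3.58.1 fit (R 4.3.3) of the 4 whole-stomach groups, whose variance was pooled (5 residual and 3.86 prior degrees of freedom). P-values were Benjamini-Hochberg adjusted over all genes and called under 0.05. The fit was tested on simulated data. Errors after ± are limma standard errors unless marked SD, and intervals are 95%. Named genes were the 4 members, the 5 genes most correlated with each, and the called or smallest-p genes of the fixed lists. The members and lists were chosen with earlier results of these data known. Of the list genes, Krt5, Eppk1 and Pnlip had no single-symbol probe set. Alternatives changed the normalization, filter, probe set, arrays, variance model, covariate and block.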

Additional observations from a re-analysis of the deposited data

How the results depend on the processing

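The Krt7 change with tamoxifen, against vehicle and averaged over rapamycin, kept its direction under all alternatives run. For tamoxifen against vehicle the count of members called was 1, and it was 0 with median centring, with only the groups compared, with the squamous covariate and with the replicate block, and from 0 to 1 with 1 array left out. For tamoxifen averaged over rapamycin it was also 1, and from 0 to 1 with 1 array left out. The count of all genes called for tamoxifen against vehicle was 381, and from 95 to 213 with 1 array left out. Small changes turned sign. Krt8 for the combination against vehicle was -0.013 with median centring and from -0.22 to 0.30 with 1 array left out. Krt19 for that comparison was 0.13 with the squamous covariate and from -0.39 to 0.093 with 1 array left out, and Krt18 from -0.014 to 0.39. Krt19 for tamoxifen against vehicle ran from -0.026 to 0.55. For rapamycin against vehicle Krt7 ran from -0.24 to 0.36 and Krt18 from -0.39 to 0.013. The interaction of Krt8 was -0.028 with the squamous covariate and from -0.22 to 0.29 with 1 array left out, that of Krt18 from -0.29 to 0.14 and that of Krt19 from -0.42 to 0.16. Limma called none of these. The causes were not tested. The differences between members kept their direction in all 66 repeats, and the fraction differences in all 8. With 1 array left out the permutations have fewer arrangements, so that the first of these says nothing about significance. Same-numbered arrays deviated together for vehicle and tamoxifen (r = 0.56 across genes) but not for the other pairs throughout (-0.11 to 0.41), so the numbers were not taken as pairs. A shift shared by the vehicle and tamoxifen arrays alone would stay in the spread used to compare them. No fit with that pairing alone was run, as the replicate block covered all whole-stomach groups. With the replicate block Krt7 was 1.78 for tamoxifen against vehicle and 1.36 averaged over rapamycin (limma adjusted p = 0.0385).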
